A study of Mus musculus with 20 samples.

Results

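The comparison described here is that of Fkbp5 knockout with wild-type hippocampus after a single dose of lipopolysaccharide (LPS), the endotoxin of Gram-negative bacteria. It takes 10 of the 20 RNA-seq libraries of the series, 5 from knockout mice and 5 from wild-type mice, chosen by the genotype and treatment that the sample labels give. All mice were labelled C57BL/6J and male, were 12 weeks old, and received 3 mg/kg LPS into the peritoneum, and hippocampi were taken on day 7. The other 10 libraries come from knockout (5) and wild-type (5) mice of the same age and sex that were given saline, and they enter below as the same genotype comparison without LPS. How the Fkbp5 allele was made, which exons it removes and in which cells, and whether each library is 1 animal are not given in the labels, so the p-values measure the spread between these libraries.

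FKBP5 is an immunophilin, a peptidyl-prolyl isomerase that binds the chaperone HSP90 within the glucocorticoid receptor complex and lowers the receptor's affinity for its hormone. Its gene is itself switched on by the activated receptor, so that FKBP5 forms a short feedback loop on the stress hormone response. In rodent hippocampus, where both corticosteroid receptors are abundant, glucocorticoids restrain the inflammatory response that LPS starts through Toll-like receptor 4, mostly in microglia and astrocytes.

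The knockout libraries after LPS held 17503531 to 27230202 counted reads and the wild-type ones 16652992 to 21810400. Replicates 1 and 2 of each genotype differed from replicates 3 to 5 far more than the genotypes did. Among the LPS libraries, mitochondrial transcripts took 4.66% to 4.99% of reads in the first set and 8.48% to 10.5% in the second, and the first principal component (63.8% of the variance of the 2000 most variable genes) separated the sets. The second component (9.34%) separated the genotypes, with scores of -15.98 to -10.96 in knockout and 7.07 to 16.41 in wild-type libraries. The model therefore carries the library set as a term, and it was fitted to all 20 libraries. Markers of hippocampal neurons were present in both genotypes: Prox1, a dentate granule cell transcription factor, averaged 115 ± 33 CPM (read counts scaled to a common library size) in knockout and 127 ± 21 CPM in wild-type libraries after LPS (SD, n = 5 each), and Wfs1, a CA1 marker, averaged 184 ± 77 and 152 ± 62 CPM in the same order. Summed levels of 13 tested thalamus markers were 271.7 to 332.6 CPM in knockout and 254.7 to 368.3 CPM in wild-type libraries. Lymphocyte markers summed to 0.326 to 0.583 CPM in knockout and 0.237 to 0.709 CPM in wild-type libraries, and 1 of the 15 passed the filter on low counts. In tissue RNA, fewer cells of a type and less RNA per cell cannot be told apart, and this holds for every gene below.

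Fkbp5 itself (chr17:28399094-28517527, GRCm38) checks the labels. It had 35.1, 28.6, 31.8, 25.1 and 26.6 CPM in the knockout libraries after LPS, against 73.4, 60.3, 67.6, 63.7 and 66.0 CPM in the wild-type ones. Every knockout library lay below every wild-type library, and none was near 0, with a mean of 44.5% of the wild-type mean. The log2 fold change was -1.17 ± 0.10 (SE), with an adjusted p of 4.76e-07. Here and below, adjusted p is from edgeR's quasi-likelihood test with Benjamini-Hochberg adjustment over 16419 genes, and a gene is called when it is under 0.05. The counts are summed over the whole gene, and which exons the remaining reads come from was not tested.

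Among the listed genes that work with FKBP5, none was called. Of 14 tested FKBP immunophilins, Fkbp5 alone was called. Its close relative Fkbp4, which acts on the receptor complex in the opposite direction, averaged 104 ± 7.9 CPM in knockout and 112 ± 10 CPM in wild-type libraries. None of the 20 glucocorticoid receptor and HSP90 chaperone genes was called, the receptor gene Nr3c1 (74.9 ± 19 against 79.0 ± 15 CPM) and Hsp90ab1 (log2 fold change 0.18) included. Their median log2 fold change was 0.11, beside 0.01 over all genes tested. Among 24 glucocorticoid receptor targets, only Fkbp5 was called. Tsc22d3 had 60.9 ± 6.2 CPM in knockout and 61.5 ± 7.2 CPM in wild-type libraries. Per1 had 74.1 ± 7.7 and 73.3 ± 9.0 CPM in the same order, and the median of the target list was -0.02.

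In all, 54 genes were called after LPS, which is 0.329% of the 16419 tested. Of these, 33 were higher in knockout (0.201%) and 21 lower (0.128%), and 1253 genes had an unadjusted p under 0.05. The called genes spanned log2 sizes of 0.33 to 9.04, with a median of 1.31, and 31 of them exceeded 1. In 40 of the 54, the 5 knockout and 5 wild-type libraries did not overlap, whereas 136 genes (0.828%) of all those tested had that property. For 53 of the 54, replicates 1 and 2 and replicates 3 to 5 gave the same direction when fitted alone. The exception, C330024D21Rik, was under the count filter in the second set. By annotation, 37 of the called genes are protein-coding, with 18 higher and 19 lower. The other 17 are long noncoding, antisense, pseudogene or unclassified transcripts, with 15 higher and 2 lower.

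**Figure D1:**
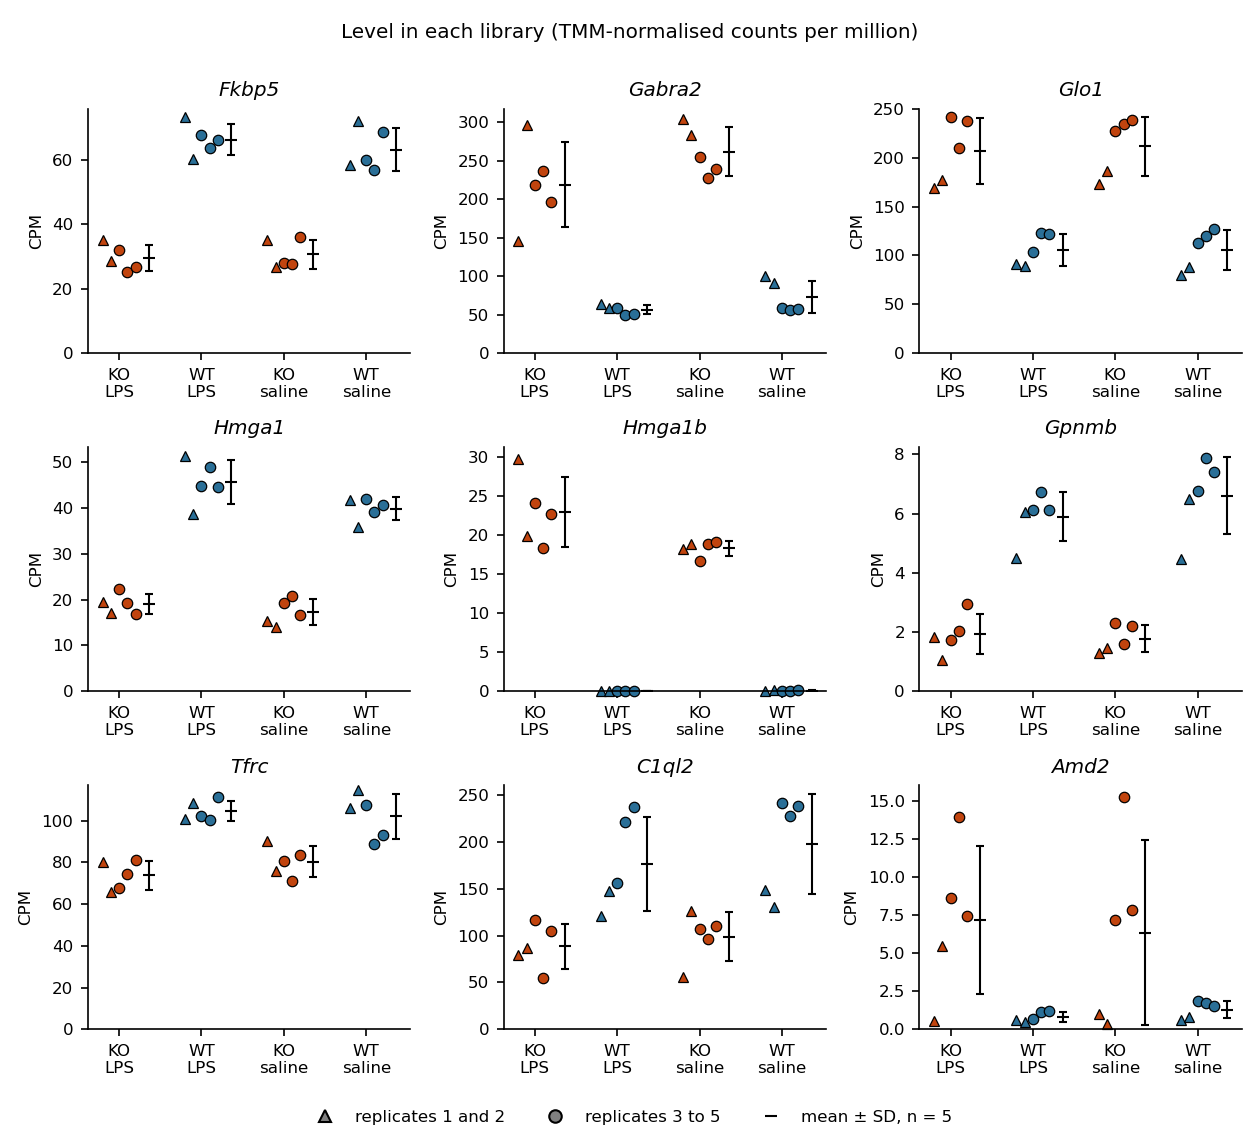
TMM-normalised CPM of 9 called genes in each library, with knockout (KO, red) left of wild-type (WT, blue) for LPS and then saline. Triangles are replicates 1 and 2, circles replicates 3 to 5, and bars the mean ± SD of 5 libraries. Fkbp5, Hmga1, Gpnmb, Tfrc and C1ql2 are lower and Gabra2, Glo1 and Hmga1b higher in every knockout library after LPS, while for Amd2 knockout replicate 1 (0.58 CPM) lies among the wild-type libraries.

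Gabra2 led the genes of neuronal signalling. It encodes the alpha-2 subunit of the GABA-A receptor, the main fast inhibitory receptor of the brain, and lies at chr5:70957597-71095849. Its level was 146, 297, 219, 236 and 197 CPM in the knockout libraries after LPS, against 64.4, 58.9, 59.2, 50.04 and 50.17 CPM in the wild-type ones. Even the lowest knockout library lay far above the highest wild-type one, and replicate 1 was the lowest of the knockout group. The log2 fold change was 1.96 ± 0.15 (SE) and the adjusted p 6.07e-08. Of 17 GABA-A receptor subunit genes tested, Gabra2 alone was called. The next by p was Gabrd, the delta subunit of extrasynaptic receptors, at 25.3 ± 7.2 CPM in knockout and 33.4 ± 4.0 CPM in wild-type libraries (adjusted p = 0.37). None of 24 tested glutamate receptor subunit genes was called.

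C1ql2, a secreted C1q-like protein that dentate granule cells release at mossy fibre synapses, was lower in knockout. It had 78.8, 86.2, 117, 55.2 and 105 CPM in the knockout libraries and 121, 148, 156, 221 and 237 CPM in the wild-type ones, so the groups met closely but did not overlap. The log2 fold change was -0.97 ± 0.21, and the adjusted p of 0.0481 was just under the threshold. Among the fits that leave out 1 library, the call was kept only without wild-type LPS replicate 3 or knockout saline replicate 1 or 2. In the other 17 such fits the adjusted p reached 0.146. The call was also kept with a replicate block (0.0496) and in DESeq2 (0.00042). It was lost without the set term (0.229), in limma-voom (0.125) and with only the 10 LPS libraries (0.142). No other member of the 14 dentate granule cell genes was called, and their summed level ranged over 671.7 to 1175 CPM in knockout and 838.7 to 1089 CPM in wild-type libraries.

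Myo5b, Necab2 and Pianp were also higher in knockout, and are set together here only for description. Myo5b, a myosin motor of recycling endosomes, had 105, 190, 142, 113 and 133 CPM in the knockout libraries after LPS, against 81.1, 67.6, 79.3, 67.8 and 73.3 CPM in the wild-type ones, a log2 fold change of 0.88 ± 0.15 (adjusted p = 0.00528). Necab2, a neuronal calcium-binding protein, had 109, 112, 102, 96.0 and 104 CPM against 78.9, 56.7, 87.2, 70.7 and 80.0 CPM (0.49 ± 0.10, adjusted p = 0.0265). Neither gene's groups overlapped. Pianp, a neural ligand of the PILR alpha receptor, had the smallest called change, 0.33 ± 0.07 (adjusted p = 0.0185), with 156 to 193 CPM in knockout and 140 to 147 CPM in wild-type libraries. Necab2 lost its call without any 1 of 5 of the 10 LPS libraries and Pianp without any 1 of 6, with adjusted p up to 0.0955 and 0.0703.

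Among genes of microglia and iron, Gpnmb and Tfrc were lower. Gpnmb, a transmembrane glycoprotein that activated microglia and macrophages make, had 1.85, 1.06, 1.74, 2.03 and 2.95 CPM in the knockout libraries after LPS, against 4.50, 6.05, 6.12, 6.72 and 6.13 CPM in the wild-type ones. The groups were well apart, with a log2 fold change of -1.65 ± 0.18 and an adjusted p of 9.34e-06. It was the only called member of 20 tested activated-microglia genes, and none of 16 homeostatic microglia genes was called, P2ry12 (40.4 ± 12 against 41.6 ± 11 CPM) among them. Tfrc, the transferrin receptor that takes up iron, had 80.1, 65.7, 67.7, 74.5 and 81.0 CPM in knockout and 101, 108, 102, 100 and 111 CPM in wild-type libraries. It fell by 0.50 ± 0.08 on the log2 scale (adjusted p = 0.00327), with no overlap, and remained called without any 1 of the 20 libraries. Of 15 tested iron-handling genes it alone was called. The next by p was Heph, an iron-oxidising membrane protein, with 5.36 ± 0.98 CPM in knockout and 7.64 ± 0.67 CPM in wild-type libraries and an adjusted p of 0.108.

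The called genes also included some whose proteins act on chromosomes or in cell division, grouped here by role after their values were seen. Mcm6, a subunit of the replicative helicase, had 3.22, 10.1, 6.60, 3.56 and 7.21 CPM in the knockout libraries after LPS, against 14.7, 21.7, 17.2, 19.4 and 23.8 CPM in the wild-type ones. Its groups did not overlap, yet with a log2 fold change of -1.65 ± 0.35 and an adjusted p of 0.0481 it kept the call in only 4 of 20 leave-one-out fits. Ncapd2, of the condensin complex, averaged 8.72 ± 3.5 against 16.1 ± 4.4 CPM (-0.89 ± 0.15, adjusted p = 0.00525). Haus1, of the augmin complex of the spindle, fell by 0.72 ± 0.16 (adjusted p = 0.0422), and Pot1a, a telomere-binding protein, fell by 0.60 ± 0.11 (adjusted p = 0.00829), with overlap between the groups. Tmpo, which tethers chromatin to the nuclear lamina, fell by 0.35 ± 0.08 (adjusted p = 0.0481), and Noc2l, an inhibitor of histone acetylation, by 0.45 ± 0.09 (adjusted p = 0.0275). None of the 17 tested genes in the list of neurogenesis and proliferation was called, although 14 lay below 0. Their median was -0.20, and 0.04 after saline. The proliferation marker Mki67 had 1.29 ± 0.72 CPM in knockout and 1.91 ± 1.6 CPM in wild-type libraries after LPS, and the young-neuron marker Dcx had 12.0 ± 1.7 and 14.7 ± 2.5 CPM in the same order.

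Signalling, ciliary and metabolic genes went in both directions. Smo, the transducer of Hedgehog signals, was higher at 37.6, 26.2, 51.5, 35.9 and 47.7 CPM in knockout against 25.6, 19.4, 32.1, 29.5 and 30.9 CPM in wild-type libraries (0.53 ± 0.11, adjusted p = 0.0273), with overlap between the groups. Znrf3, a ubiquitin ligase that removes Wnt receptors, fell by 0.52 ± 0.11 (adjusted p = 0.0333) without overlap. Dnah6 and Dnah8, dynein heavy chains of motile cilia, were both higher, by 2.27 ± 0.30 (adjusted p = 0.000296) and 1.58 ± 0.33 (adjusted p = 0.0351). None of 15 other genes of ependymal cilia was called, 13 of them lay above 0, their median was 0.29, and the ciliary master regulator Foxj1 had 6.65 ± 2.2 CPM in knockout and 6.28 ± 0.90 CPM in wild-type libraries. Inmt, an enzyme that methylates indoleamines, had 0.29, 0.48, 0.164, 0.0564 and 0.251 CPM in knockout and 1.26, 1.79, 2.32, 1.68 and 2.61 CPM in wild-type libraries, the largest decrease of any called gene (-2.79 ± 0.47, adjusted p = 0.00421). Decr2, a peroxisomal enzyme that degrades unsaturated fatty acids, fell by 0.48 ± 0.09 (adjusted p = 0.0175). Hbq1a, a theta-globin gene, was higher by 2.22 ± 0.34 (adjusted p = 0.00207), while the red-cell genes Hba-a1 (23.1 ± 19 against 15.5 ± 14 CPM) and Alas2 (0.956 ± 0.73 against 1.20 ± 0.79 CPM) were not called.

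Of the 54 calls, 31 were kept in each of the 20 fits that leave out 1 library, and 21 were kept in those and also without the set term, with a replicate block, in DESeq2 and in limma-voom. Taken alone, the fit without the set term kept 23 of the 54, limma-voom 35 and the fit with only the 10 LPS libraries 20. The losses listed next are those in the fits that leave out 1 library. Scnn1a, the alpha subunit of the epithelial sodium channel, lost its call in 1 of these, without wild-type LPS replicate 2 (adjusted p = 0.051). Decr2 lost it without wild-type LPS replicate 5 or knockout LPS replicate 3 or 5 (up to 0.075). Beyond these fits, both lost it without the set term (0.289 and 0.067) and with only the 10 LPS libraries (0.192 and 0.131). Scnn1a also lost it in limma-voom (0.12), as did Pot1a (0.0999). Ip6k3, an inositol phosphate kinase, lost it without wild-type LPS replicate 2, 4 or 5 (up to 0.0767). Abhd1, a predicted hydrolase gene whose transcript overlaps Preb, lost it without wild-type LPS replicate 1, 3 or 4 or knockout LPS replicate 4 (up to 0.0686). Hdhd2 lost it without wild-type LPS replicate 1 or 2 or knockout LPS replicate 2 or 5 (up to 0.0684). Noc2l, Znrf3 and Smo kept it in 13, 14 and 13 of the 20 fits, Dnah8 in 11, Haus1 in 6 and Tmpo in 2, with adjusted p up to 0.17. Ip6k3, Abhd1, Hdhd2, Noc2l, Znrf3, Smo, Dnah8, Haus1 and Tmpo also lost it without the set term. With only the 10 LPS libraries they lost it too, save Abhd1, which fell under the count filter. In limma-voom, Abhd1, Noc2l and Smo kept it and the others lost it. Pot1a, Txnl4a, Pstpip2 and Ncapd2 kept it in all 20 fits that leave out 1 library. They lost it without the set term (0.558, 0.339, 0.343 and 0.336) and with only the 10 LPS libraries (0.18, 0.123, 0.0528 and 0.0805).

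Single libraries did not always side with their genotype. Each of the 5 knockout libraries after LPS lay clear of all wild-type ones in most of the 54 genes, and the number in which it did not was 5, 3, 4, 1 and 3 for replicates 1 to 5. Replicate 1 was within or beyond the wild-type range for Gm42732, Ncapd2, Hdhd2, Amd2 and Noc2l. For Noc2l it had 49.3 CPM, beside 34.7 to 37.1 CPM in the other knockout libraries and 49.0 to 55.6 CPM in the wild-type ones. For Ncapd2 it had 14.8 CPM, beside 6.15 to 8.03 CPM in the other knockout libraries and 12.1 to 22.3 CPM in the wild-type ones. Without knockout LPS replicate 1, 76 genes were called, 44 of them among the 54.

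A group of calls concerned single-exon copies of multi-exon genes. Of the 54, 8 are genes or pseudogenes with 1 exon whose transcript matches the coding sequence of another gene elsewhere in the genome, and all 8 were higher in knockout. Processed pseudogenes, which arise when a messenger RNA is copied back into the genome, were called in 6 of 227 tested (2.64%), against 37 of 14339 protein-coding genes (0.258%). The filter on low counts keeps a gene that is high enough in 1 group alone. Hmga1b, Gm13443, Gm5527, Gm15387, Gm13394 and Gm12751 averaged 0.0158 to 0.278 CPM in wild-type libraries after LPS and passed through their knockout levels. Their direction was thus largely set by the filter, and the share of pseudogenes called is no separate support for it. How reads that fit both a copy and its parent were counted is not given in the sources used here, so the split between copy and parent is uncertain for each pair. Coding sequences below are from GENCODE M21 transcripts (GRCm38), 5′ to 3′ on the gene's own strand.

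Hmga1b is the clearest case. It is a copy on chromosome 11 (chr11:120762794-120764419) of Hmga1 (chr17:27556497-27563674), which encodes an AT-hook protein that bends and opens chromatin. The 2 genes have the same 357 coding bases, of which the first 60 are shown to make plain that no read within them can be assigned to one gene over the other. There are no capitals in this pair because no base differs.
Hmga1: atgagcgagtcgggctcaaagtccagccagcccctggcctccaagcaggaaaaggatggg
Hmga1b: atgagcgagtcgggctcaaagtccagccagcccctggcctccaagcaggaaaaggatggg

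Hmga1b had 29.7, 19.8, 24.0, 18.3 and 22.7 CPM in the knockout libraries after LPS and 0.0789, 0.0406, 0.0645, 0 and 0 CPM in the wild-type ones, which together held 4 reads against 2527 in knockout. Hmga1 had 19.6, 17.0, 22.2, 19.2 and 16.8 CPM in knockout, against 51.5, 38.7, 44.7, 49.0 and 44.6 CPM in wild-type libraries. Both differences were called, at adjusted p of 1.06e-14 for Hmga1b and 6.07e-08 for Hmga1 (log2 fold change -1.27 ± 0.10), in opposite directions. The sum of the pair was 36.87 to 49.34 CPM in knockout and 38.71 to 51.56 CPM in wild-type libraries, so the summed levels overlapped. Hmga1b made up 54.7% of the summed mean in knockout and 0.0804% in wild-type libraries.

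Glo1 and its copy Gm13443 both rose. Glo1 (chr17:30584936-30626871) encodes glyoxalase 1, which detoxifies methylglyoxal, a by-product of glycolysis. It had 168, 177, 242, 210 and 237 CPM in the knockout libraries after LPS, against 91.6, 88.8, 103, 123 and 122 CPM in the wild-type ones, with no overlap and a log2 fold change of 0.96 ± 0.07 (adjusted p = 8.4e-09). Gm13443 (chr2:35340409-35340963) had 6.19, 8.33, 16.7, 12.6 and 19.2 CPM in knockout and 0.197, 0, 0, 0.3 and 0.196 CPM in wild-type libraries (adjusted p = 3.28e-11), and was 5.75% of the summed mean in knockout. Glo1 was the only called gene of 20 for methylglyoxal and glutathione defence.

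**Figure D2:**
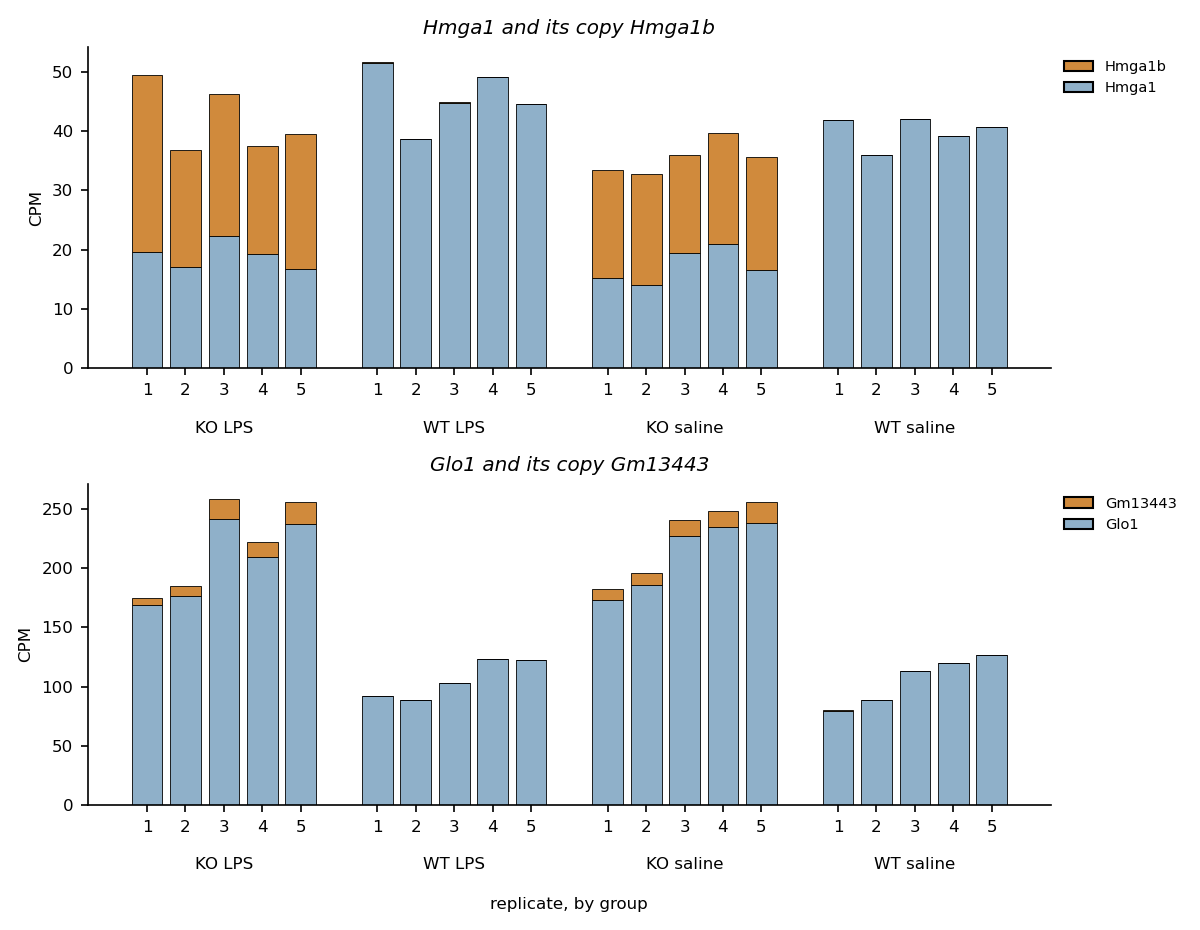
CPM of Hmga1 and Glo1 (blue) with their copies Hmga1b and Gm13443 (orange) stacked on top, 1 bar per library, with knockout groups left of wild-type ones. The Hmga1 and Hmga1b bars reach similar total heights in knockout and wild-type libraries after LPS (36.87 to 49.34 and 38.71 to 51.56 CPM), whereas the Glo1 and Gm13443 totals do not overlap (174.7 to 258.7 and 88.79 to 123.5 CPM).

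The remaining 6 copies rose without a called change in the parent. Amd2 is a copy of Amd1, which encodes the S-adenosylmethionine decarboxylase of polyamine synthesis, and differs from it in 1 of 1005 coding bases (G796C, shown in capitals). Positions here and below are counted from 1 at the A of the parent's start codon, with the parent's base first. Amd2 had 0.58, 5.45, 8.62, 13.9 and 7.46 CPM in the knockout libraries after LPS, against 0.631, 0.487, 0.709, 1.14 and 1.24 CPM in the wild-type ones (adjusted p = 0.0205). Knockout replicate 1 lay within the wild-type range and the other 4 far above it. After saline, knockout replicates 1 and 2 were low in the same way (1.01 and 0.383 CPM) and replicates 3 to 5 were at 7.21, 15.3 and 7.85 CPM, against 0.594 to 1.87 CPM in wild-type libraries. Amd1 averaged 125.7 CPM in both genotypes after LPS.
Amd1: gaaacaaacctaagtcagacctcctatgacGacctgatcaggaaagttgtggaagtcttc
Amd2: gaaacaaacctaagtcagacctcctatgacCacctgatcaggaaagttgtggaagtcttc

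Hmgb1, which encodes an abundant chromatin protein that acts as an alarm signal when released, has 2 called copies. Gm5527 differs from it at 7 of the 638 coding positions that align, including T432G and A441G, the capitals in the 60 bases below. It had 1.85 to 3.89 CPM in knockout and 0.0394 to 0.18 CPM in wild-type libraries after LPS (adjusted p = 2.39e-06), with no overlap. Gm15387, which differs at 1 position (A21G), had 0.439 to 2.57 CPM in knockout and 0 to 0.122 CPM in wild-type libraries (adjusted p = 0.00421). Hmgb1 itself had 141.9 ± 27 CPM in knockout and 176.2 ± 18 CPM in wild-type libraries (adjusted p = 0.44).
Hmgb1: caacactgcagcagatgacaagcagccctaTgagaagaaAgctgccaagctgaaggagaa
Gm5527: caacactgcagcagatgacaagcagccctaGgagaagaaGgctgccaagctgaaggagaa

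The last 3 copies are of genes that every cell uses. Gm12191, a copy of the ribosomal protein gene Rpl30 (1 difference, G96A), had 4.56 to 7.98 CPM in knockout and 1.22 to 3.60 CPM in wild-type libraries, an adjusted p of 0.0024. Gm13394, a copy of the glycolytic enzyme gene Gapdh (A424C), had 1.45 to 3.10 CPM in knockout and 0.0812 to 0.434 CPM in wild-type libraries (adjusted p = 1.91e-05). Gm12751, identical over 381 bases to Polr1d, a subunit of RNA polymerases I and III, held 341 reads in knockout and 2 in wild-type libraries (adjusted p = 4.27e-06). The groups of these copies did not overlap, and the parents were not called, with adjusted p of 0.677 for Rpl30, 0.825 for Gapdh and 0.843 for Polr1d.

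More broadly, 9 of the 33 higher genes averaged under 0.2 CPM in wild-type libraries after LPS, and none of the 21 lower genes was under that level in knockout. Foremost was AC165951.1, an antisense transcript (chr17:30920338-30963220), with 36.4, 30.3, 31.2, 25.1 and 24.4 CPM in the knockout libraries, against 0.0394, 0.0406, 0.0645, 0 and 0.13 CPM in the wild-type ones. The wild-type libraries held 5 reads of it in all and the knockout ones 3297 (adjusted p = 1.58e-16). In all, 18 of the 54 called genes matched a transcript from another locus, counting matches of 95% identity or more that spanned 30% or more of the shorter one. Beside the 8 copies, Hmga1 and Glo1, these were AC165962.1, Gabra2, Gm42732, Haus1, Hbq1a, Mcm6, Smo and Txnl4a. Their matches were short stretches, for example 79 bases for Gabra2, 182 for Mcm6 and 339 for Smo. Only reads within such stretches carry the same uncertainty. Hbq1a matched its neighbour Hbq1b at 99.04%, while the transcripts that matched Gabra2, Mcm6 and Smo held 1, 0 and 1 read over all 20 libraries. AC165951.1 overlaps AC174471.1, AC165962.1 overlaps Btbd9, and Noc2l overlaps Samd11. Without the strand setting, reads from overlapping genes cannot be told apart. Txnl4a shares 248 identical bases on the same strand with Gm16286, which it overlaps, so reads there fit both. Gm16286 had a log2 fold change of -0.16 after LPS (adjusted p = 0.568).

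The called genes were unevenly placed. Within 20 Mb of Fkbp5, 9 of 529 tested genes (1.7%) were called, against 45 of 15890 (0.283%) elsewhere. On chromosome 17 all 9 lay in one stretch of 4.88 Mb, in the order Decr2, Ip6k3, Hmga1, Fkbp5, Pi16, AC165962.1, Glo1, Dnah8 and AC165951.1, with 84 genes tested between the first and the last. Ip6k3 had 1.05, 0.857, 1.31, 1.52 and 1.44 CPM in knockout and 0.394, 0.365, 0.838, 0.36 and 0.457 CPM in wild-type libraries (1.34 ± 0.26, adjusted p = 0.0167). Pi16, a peptidase inhibitor gene, rose by 1.61 ± 0.33 (adjusted p = 0.0275), though its groups overlapped and the call was lost without any 1 of 7 LPS libraries (adjusted p up to 0.137).

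Chromosome 6 held the most calls, 14 of 824 tested genes (1.7%), with 7 higher and 7 lower. Among them were a run of 3 around Smo and Pot1a, a run of Gm20383, Gm15624 and Nat8f5, and a run of Pianp, Ncapd2 and Scnn1a within 0.348 Mb. Gpnmb, Inmt, Dnah6 and Gm15631 also lay on chromosome 6, outside these runs. Zfp239, a zinc-finger gene also on chromosome 6, had 45.8 to 52.7 CPM in knockout and 26.5 to 36.1 CPM in wild-type libraries (0.60 ± 0.08, adjusted p = 0.000307). On chromosome 5, Bend4, C330024D21Rik, Gabra2 and Gm42732 lay within 5.92 Mb, among 21 genes tested, and all 4 were higher. On chromosome 18, Myo5b, Hdhd2, Haus1, Pstpip2 and Txnl4a lay within 5.78 Mb, among 31 genes tested. Myo5b and the spliceosome gene Txnl4a (0.48 ± 0.08, adjusted p = 0.00421) were higher, while Hdhd2, Haus1 and the macrophage actin-binding gene Pstpip2 (-0.80 ± 0.14, adjusted p = 0.00528) were lower. Txnl4a shares sequence with the overlapping Gm16286, as given above.

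With called neighbours joined when less than 5 Mb apart, 27 of the 54 genes fell in 6 runs of 3 or more. With 2 Mb in place of 5 Mb, 15 fell in 3 runs. No gene was called on chromosomes 3, 7, 9, 12, 13, 14, 19 or X, which held 552 to 1276 tested genes each.

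**Figure D3:**
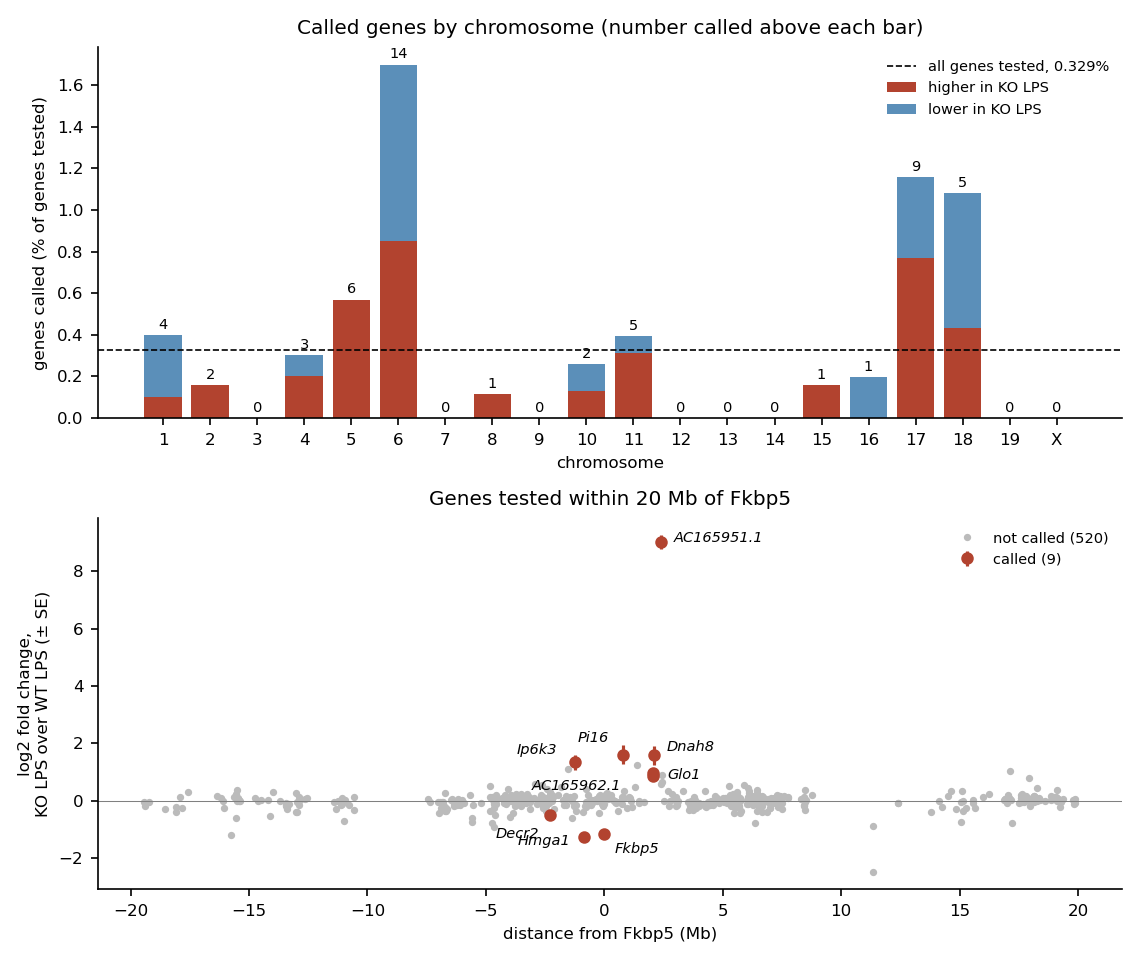
Above, the share of tested genes that was called on each chromosome, higher (red) and lower (blue) in knockout after LPS, with the number called over each bar and the share over all genes (0.329%) as a dashed line. Below, the log2 fold change of knockout over wild-type after LPS for the 529 genes tested within 20 Mb of Fkbp5, by distance; the 9 called genes (red, ± SE) all lie within a few Mb of Fkbp5.

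The genotype comparison after saline sets other libraries against each other, although all 20 share the model's estimate of the spread and its set term. There, 47 genes were called (0.286%), 33 higher and 14 lower. Of the 54 genes called after LPS, 35 were also called after saline in the same direction, 24 higher and 11 lower, which is 64.8% of the LPS calls and 74.5% of the saline calls. All 54 had the same sign after saline, and 51 had an unadjusted p under 0.05 there. The median size over the 54 was 1.31 on the log2 scale after LPS and 1.03 after saline, with the saline value smaller for 32 genes and larger for 22. The libraries of the genotypes did not overlap after saline in 32 of the 54, and in 121 (0.737%) of all genes tested.

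Values after saline were close for the leading genes. Fkbp5 averaged 30.7 ± 4.5 CPM in knockout and 63.1 ± 6.7 CPM in wild-type libraries after saline (log2 fold change -1.04). Gabra2 had 262 ± 32 against 72.7 ± 21 CPM (1.87), Glo1 212 ± 30 against 106 ± 20 CPM (1.01) and Hmga1 17.2 ± 2.9 against 39.9 ± 2.5 CPM (-1.22). Gpnmb had 1.77 ± 0.46 against 6.61 ± 1.3 CPM (-1.90). C1ql2 had 99.0 ± 26 against 197 ± 53 CPM, a log2 fold change of -0.96 that missed the threshold after saline (adjusted p = 0.059). Tfrc had 80.4 ± 7.4 against 102 ± 11 CPM (-0.34, adjusted p = 0.097).

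**Figure D4:**
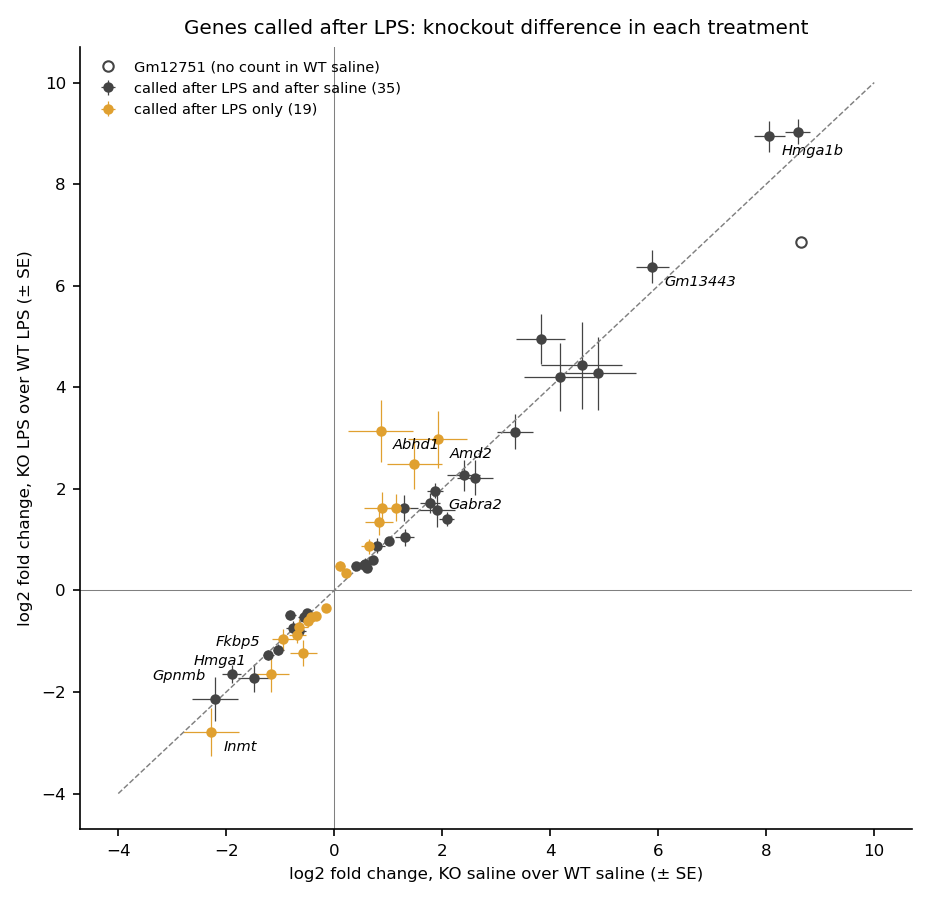
Log2 fold change of knockout over wild-type after LPS (vertical) and after saline (horizontal) for the 54 genes called after LPS, with SE bars; the dashed line marks equal values. Dark points and the open circle are the 35 genes also called after saline and orange points the 19 that were not. The open circle is Gm12751, which had no read in wild-type saline libraries; against a floor of 3 reads over that group it was at least 77.5-fold higher in knockout. All 54 lie in the quadrants of equal sign.

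No gene was called for the interaction, the difference between the genotype effect after LPS and that after saline, by edgeR, DESeq2 or limma-voom. The smallest adjusted p was 0.989, and 472 genes (2.87%) had an unadjusted p under 0.05. Among the 54 LPS calls, 4 had an unadjusted interaction p under 0.05: Gm15631 (0.002), Necab2 (0.012), Abhd1 (0.019) and Decr2 (0.022). Necab2 averaged 90.1 ± 3.1 CPM in knockout and 83.9 ± 11 CPM in wild-type libraries after saline, and the smallest unadjusted p of all was for Dmac1, a mitochondrial assembly gene (0.00046), at 20.8 ± 2.2 against 25.2 ± 3.6 CPM after saline and 19.6 to 24.0 against 15.3 to 24.5 CPM after LPS. For the 19 genes called after LPS and not after saline, the genotype difference is therefore not shown to depend on LPS. In the other direction, 12 genes were called only after saline, and all 47 saline calls had the same sign after LPS. Besides Cth, Klrg1, Glt1d1, Gimap6, Umodl1, Lrig1, Erich5, Gm16286, Gm13856 and Cntn4, they included Tlr6, a partner of Toll-like receptor 2, with 1.20, 1.44, 1.42, 2.03 and 1.32 CPM in knockout and 0.671, 0.609, 0.645, 0.72 and 0.522 CPM in wild-type libraries after LPS. Its groups did not overlap, yet the log2 fold change of 1.20 ± 0.27 had an adjusted p of 0.0606.

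Most members of the pathway and cell type lists were not called, and of the glial and immune lists 2 held a call, Gpnmb in activated microglia and Fkbp5 in LPS-type reactive astrocytes. Of 49 lists of pathway and cell type genes, with 691 distinct genes tested, 8 distinct genes were called (1.16%): Fkbp5, Gpnmb, C1ql2, Gabra2, Tfrc, Glo1, Hmga1b and Hmga1. The share over all genes tested was 0.329%. The lists were written with earlier results of these data known and include the targeted gene, so the higher share is no result about them. None was called in the lists of acute-phase genes (8 tested), complement (18), class I (19) and class II (9) antigen presentation, NF-kB, cytokines and chemokines (17), interferon response (24), Toll-like receptors and adaptors (24) or checkpoint receptors and ligands (11). Saa3, an acute-phase protein, had 1.67 ± 1.0 CPM in knockout and 1.26 ± 1.1 CPM in wild-type libraries. Serpina3n, a marker of reactive astrocytes, had 68.4 ± 9.8 and 58.8 ± 11 CPM in the same order, and Lag3, an immune checkpoint receptor, 14.5 ± 4.2 and 11.4 ± 1.4 CPM. The cytokine genes Tnf, Il1b, Il6, Ccl2 and Cxcl10 were under the count filter. At these depths, 3 reads over a whole group correspond to 0.0276 CPM in knockout and 0.0308 CPM in wild-type libraries after LPS.

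Several lists leaned to one side with no called member, or with Fkbp5 as the only one, which is given as a description. After saline, the medians were -0.19 for interferon-inducible GTPases, -0.16 for LPS-type reactive astrocytes, -0.08 for brain endothelium and -0.27 for blood. They were 0.07 for interneurons and neuropeptides and 0.06 for immediate early genes. These had the same sign as after LPS, whereas meningeal fibroblasts had the opposite one, at 0.52 after saline. The interferon-inducible GTPases, which attack pathogen vacuoles, lay below 0 in 12 of 13 tested genes, with a median of -0.21, while over all genes 47.6% lay below 0. Gbp9 had the smallest p among them, with 3.22, 1.92, 1.58, 1.58 and 1.32 CPM in knockout and 4.81, 3.49, 2.77, 2.22 and 2.67 CPM in wild-type libraries (-0.73 ± 0.17, adjusted p = 0.07). Its groups overlapped, and its interaction p was 0.028 before adjustment. Of 11 LPS-type reactive astrocyte genes, 10 lay below 0 (median -0.23), the targeted Fkbp5 among them and the only one called. Without wild-type LPS replicates 1 and 4 and knockout LPS replicate 1, 7 of the 11 lay below 0, whereas 11 did without wild-type LPS replicate 2. Brain endothelium genes lay below 0 in 13 of 16, among them Cdh5, the cadherin of endothelial junctions (10.98 ± 1.8 against 14.8 ± 0.75 CPM, adjusted p = 0.26), and none was called. The lowest medians were those of meningeal fibroblast genes (-0.47, 11 of 14 below 0) and blood genes (-0.61, 5 of 6 below 0). Their summed levels overlapped, at 120.2 to 181.5 against 112.3 to 259.0 CPM and at 264.8 to 473.8 against 260.6 to 438.2 CPM. Neither held throughout. The meningeal median was 0.07 without wild-type LPS replicates 1 and 4 and knockout LPS replicate 1, and 0.08 in replicates 3 to 5 alone. The blood median was -0.01 without wild-type LPS replicate 2 and likewise -0.01 in replicates 3 to 5 alone. Without knockout LPS replicate 1, 1 interferon-inducible GTPase and 1 endothelium gene were called. Interneuron and neuropeptide genes lay above 0 in 16 of 20, for example Sst (145 ± 34 against 109 ± 30 CPM, adjusted p = 0.58). Immediate early genes, which neuronal activity switches on, lay above 0 in 16 of 20, for example Npas4 (9.32 ± 3.1 against 5.36 ± 3.1 CPM, adjusted p = 0.59). No interneuron or immediate early gene was called.

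Myelin genes were the list with the most unadjusted p under 0.05, 10 of 15, against 7.63% of all genes, and 14 of the 15 lay below 0 (median -0.35). After saline their median was -0.18. None was called. Cldn11, the tight-junction protein of myelin, had 97.4, 98.5, 86.8, 117 and 111 CPM in knockout and 119, 177, 120, 150 and 139 CPM in wild-type libraries (-0.47 ± 0.12, adjusted p = 0.151). Mal, a myelin membrane protein, had 126, 130, 112, 159 and 131 CPM against 170, 322, 161, 192 and 178 CPM (-0.63 ± 0.17, adjusted p = 0.175). Neither gene's groups overlapped, and wild-type replicate 2 was the highest library for both. Without that library, 2 of the 15 had an unadjusted p under 0.05 and the median was -0.21. Leaving out wild-type replicates 1 and 4 and knockout replicate 1, the libraries richest in thalamus RNA, gave 9 and -0.40. The summed level of the list was 3030 to 4642 CPM in knockout and 3647 to 6870 CPM in wild-type libraries, and the part of dissection in this was not tested.

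**Figure D5:**
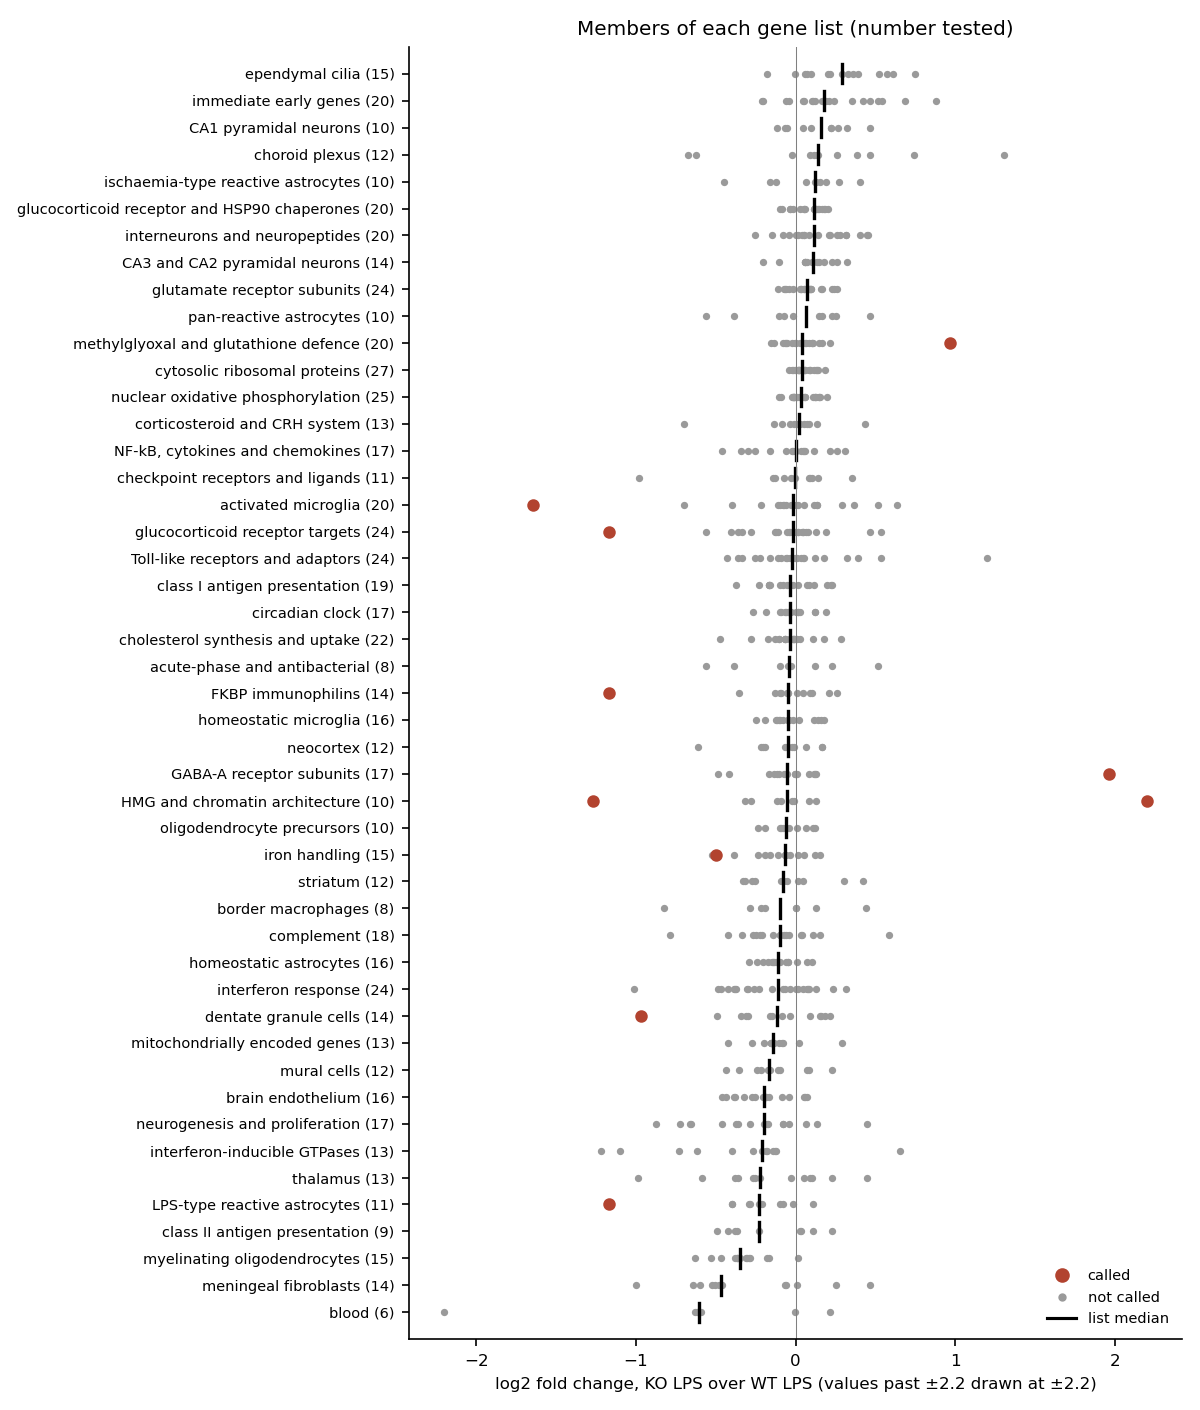
Log2 fold change of knockout over wild-type after LPS for the members of the 47 gene lists with at least 3 tested genes, ordered by list median (black bar); red points are called genes and grey points are not. Values past the axis ends are drawn at its ends (Hmga1b, a blood gene). Medians run from -0.61 for blood genes to 0.29 for ependymal cilia, and the called Tfrc (iron handling) lies beside an uncalled member, while the other called genes stand apart.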

How the data were processed

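Hippocampal RNA was prepared for sequencing with the NEBNext Ultra RNA kit, per the labels' protocols. The submitters' processing notes name Trimmomatic 0.38, FastQC, MultiQC, featureCounts 1.6.0 and mouse build mm10. The aligner, annotation release, strand setting and treatment of multi-mapping reads are not given in the sources used here. The authors deposited whole-number read counts for 55536 genes, whose IDs all matched GENCODE M21 (GRCm38).

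Counts were filtered by edgeR 4.0.16 (filterByExpr, 16419 genes kept), TMM-normalised, and fitted with the robust quasi-likelihood model (R 4.3.3) over all 20 libraries with group and library set (replicates 1 and 2, or 3 to 5, which the data and not the labels separate) as terms. Benjamini-Hochberg adjusted p under 0.05 was called. CPM values use TMM library sizes. Alternatives were the fit without the set term, a replicate block, DESeq2 1.42.0, limma-voom (limma 3.58.1), other filters and size factors, subsets of libraries, and leaving out each library. The script was tested on simulated data. Copies were found with BLAST 2.17.0+ among GENCODE transcripts. No 2 libraries had identical counts.

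Genes named are Fkbp5, the 15 with the smallest p in each direction (predicted genes, Rik names and clone names left out), called list members, the 2 smallest p of each list, called genes in runs, and the 5 smallest interaction p. Other called genes, and further list members given as examples, were named after their values were seen. The members, lists and tests were chosen with earlier results of these data known. A gene and a sequence comparison are not reported here.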

Additional observations from a re-analysis of the deposited data

Results flagged for a closer look

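Among the 130 genes named by rule, each genotype's 5 libraries after LPS were checked for 1 library standing far from the other 4, which gave 11 of 260 groups. Chance alone gives about 1 in 20 groups.

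Of the 11, 5 concern knockout replicate 1. It had 15.1 CPM of Gm42732, against 34.3 to 40.2 CPM in the other knockout libraries. It had 14.8 CPM of the condensin gene Ncapd2 (others 6.15 to 8.03 CPM) and 49.3 CPM of Noc2l (others 34.7 to 37.1 CPM). For Dmac1 it had 19.6 CPM (others 22.9 to 24.0 CPM), and for Elavl2, a neuronal RNA-binding protein, 52.9 CPM (others 102 to 110 CPM). The cause was not tested.

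In the other knockout libraries, replicate 2 had 15.3 CPM of Bend4 (others 12.2 to 12.8 CPM) and replicate 5 had 1.13 CPM of C330024D21Rik (others 0.382 to 0.564 CPM). In wild-type libraries, replicate 1 had 155 CPM of the clock-related transcription factor Hlf (others 201 to 218 CPM). Wild-type replicate 2 had 322 CPM of Mal (others 161 to 192 CPM). Wild-type replicate 3 had 0.838 CPM of Ip6k3 (others 0.36 to 0.457 CPM) and 38.0 CPM of Grin3a, an NMDA receptor subunit (others 27.4 to 29.7 CPM).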

How the results depend on the processing

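Fkbp5 and the other 53 called genes kept their direction under the alternatives in which they were tested, whereas some list medians changed sign. Without the 3 thalamus-rich libraries the medians became 0.07 for meningeal fibroblasts (-0.47 with all), 0.43 for border macrophages (-0.10), 0.05 for class I (-0.03) and 0.07 for class II (-0.23) genes. The number of genes called after LPS was 54, against 24 without the library-set term (19 higher, 5 lower, 23 of them among the 54), 115 with DESeq2 (66 higher, 49 lower), 229 with no filter on low counts (126 higher, 103 lower), 20 with only the 10 LPS libraries, 4 with replicates 1 and 2 alone and 118 with replicates 3 to 5 alone. Under those settings the saline count of 47 became 28, 88, 335, 40 (with only the 10 saline libraries), 3 and 500. The count called in both, 35, became 21, 58, 99, 16, 3 and 85. Interaction calls went to 85 with no filter and were 0 in the other fits. Fkbp5 had -1.057 and an adjusted p of 0.921 with replicates 1 and 2 alone. With 2 Mb in place of 5 Mb, 15 called genes stood in runs. Leaving out 1 library gave 37 to 76 genes after LPS, 32 to 59 after saline, 28 to 41 in both, 0 for the interaction, and -1.232 to -1.124 for Fkbp5. The causes were not tested.

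With the replicate number as a block in place of the set, 63 genes were called after LPS (39 higher, 24 lower, 53 of the 54), 59 after saline, 44 in both and 0 for the interaction, and Fkbp5 had -1.168. The numbers do not pair libraries: with group-and-set means removed, same-numbered libraries correlated at -0.265 to 0.63 (median 0.0156, 30 pairs). Gene lists without single libraries were recomputed after seeing the data.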

Other observations

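A further 12 genes under the count filter had a read in each of the 5 libraries of one genotype after LPS and none in the other, 7 in knockout and 5 in wild-type. The knockout ones included Gm47252, an antisense transcript next to Noc2l and Samd11 on chromosome 4, with 29 reads in knockout and 0 in wild-type libraries, and Vmn1r51, a vomeronasal receptor gene on chromosome 6, with 20 and 0 reads. After saline, Gm47252 had 14 reads in knockout and 0 in wild-type libraries, and Vmn1r51 had 31 and 2. The wild-type ones included 1700026J14Rik on chromosome 6, with 0 reads in knockout and 16 in wild-type libraries after LPS, and 7 and 12 after saline. These genes were not tested.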
